A study of Mus musculus with 6 samples.

Results

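The genes described here encode the small core proteins of the spliceosome (symbols beginning Snrp or Lsm), 2 groups of larger spliceosome proteins (Sf3a or Sf3b, and Prpf) and 2 families of splicing regulators (Srsf and Hnrnp). They were taken by symbol alone from the protein-coding genes of the count table, which gave 78 genes of 54532. Among them 12 are Snrp, 13 Lsm, 9 Sf3a or Sf3b, 13 Prpf, 11 Srsf and 20 Hnrnp genes. Poly-A RNA was sequenced from Th17 cells, the interleukin-17-producing class of helper T cell, in 3 libraries from GOT1-/- cells and 3 from WT cells. GOT1 is the cytosolic aspartate aminotransferase, and the knockout was T cell specific on the C57BL/6 strain, also that of the WT mice. The donors were male or female and 6 to 10 weeks old, and naive CD4+ T cells were sorted from them. Both genotypes were activated with 5 µg/ml of plate-bound anti-CD3 and 2 µg/ml of anti-CD28. Both cultures held 2.5 ng/ml of TGFβ, 10 ng/ml each of IL-6, IL-1β and IL-23, and antibodies that block IL-4 and IFNγ (2 µg/ml of each). RNA was taken on day 4. The line that drives the deletion is not named in the labels, and neither is whether replicates came from separate mice, so p-values measure the spread between these libraries, which may be technical.

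The spliceosome removes introns from messenger RNA precursors. Each of its small nuclear RNAs is held in a ring of small proteins: the Sm ring around U1, U2, U4 and U5, and the Lsm2 to Lsm8 ring around the tail of U6. SF3a and SF3b make up the part of the U2 particle that grips the branch point, and many Prpf proteins belong to the U4/U6.U5 tri-snRNP that forms the catalytic centre. SR proteins (Srsf) and hnRNP proteins (Hnrnp) bind the transcript itself and shift the choice of splice site, SR proteins mostly from exon enhancers and hnRNPs often as silencers. In activated T cells regulators of both families act on exon choice, as hnRNPLL does in Ptprc, the gene for CD45.

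Libraries held 16463752 to 22541410 counts, and Got1 checked the labels: it was at 16.03, 15.04 and 17.5 CPM (counts per 1000000, scaled by TMM) in GOT1-/- libraries, against 166, 165 and 174 CPM in WT libraries. The T cell genes Cd4, Cd3e and Trac and the Th17 genes Il17a and Il17f were present in all 6 libraries; of 10 such markers 1 was called higher and 5 lower in GOT1-/- cells. Clec9a, Siglech and Hbb-bs had no count in any. Of 8 erythroid, mast cell and basophil markers, 4 passed the filter on low counts and all 4 were called higher in GOT1-/- cells, with a summed level of the list of 11.7 to 12.8 CPM in GOT1-/- libraries and 2.98 to 3.89 CPM in WT libraries. The 10 macrophage, monocyte and neutrophil markers summed to 52.4 to 66.3 CPM in GOT1-/- libraries and 173 to 180 CPM in WT libraries. Most of the WT sum was Ly6g, and Lyz2, S100a8 and S100a9 were called higher in GOT1-/- cells at 0.99 to 14.4 CPM. Ly6g and Cd68 were called lower, so that 3 of 7 tested were higher and 2 lower, with Cd68 at 10.1 to 12.4 CPM in GOT1-/- libraries and 17.7 to 21.8 CPM in WT libraries. Markers of CD8, gamma-delta and NK cells summed to 61.2 to 66.2 CPM in GOT1-/- libraries and 72.1 to 77.1 CPM in WT libraries. Of 6 tested, Trdc, Tcrg-C1 and Tcrg-C2 were called higher and Klrd1, the most abundant, lower (median log2 fold change 0.80, GOT1-/- over WT). Those of B cells summed to 8.16 to 9.99 CPM in GOT1-/- libraries and 9.06 to 11.1 CPM in WT libraries, and those of dendritic cells to 3.91 to 5.02 CPM in GOT1-/- libraries and 2.63 to 3.38 CPM in WT libraries. The part of such cells in the splicing results was not tested. In bulk RNA fewer cells of a type and less RNA per cell cannot be told apart.

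As a group the splicing genes were more often higher than lower in GOT1-/- cells, most of all the small core proteins. Of 77 genes tested, 40 rose, 6 fell and 31 did not pass an adjusted p of 0.05 in edgeR's quasi-likelihood test. Over all 12873 genes tested 43.8% were called, 22.9% higher and 21.0% lower in GOT1-/- cells. The median log2 fold change (GOT1-/- over WT) was 0.22 for the splicing genes and 0.01 for all genes tested. In 42 splicing genes every GOT1-/- library lay above every WT library and in 6 every one lay below, where 27.7% and 25.8% of all tested genes did so. The splicing genes together took 1.40 to 1.52% of counts in GOT1-/- libraries and 1.23 to 1.30% in WT libraries. Snrpn, which encodes a tissue-restricted Sm protein and is best known from brain, had 1 count in a single GOT1-/- library and none in the other 5, and was not tested.

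**Figure D1:**
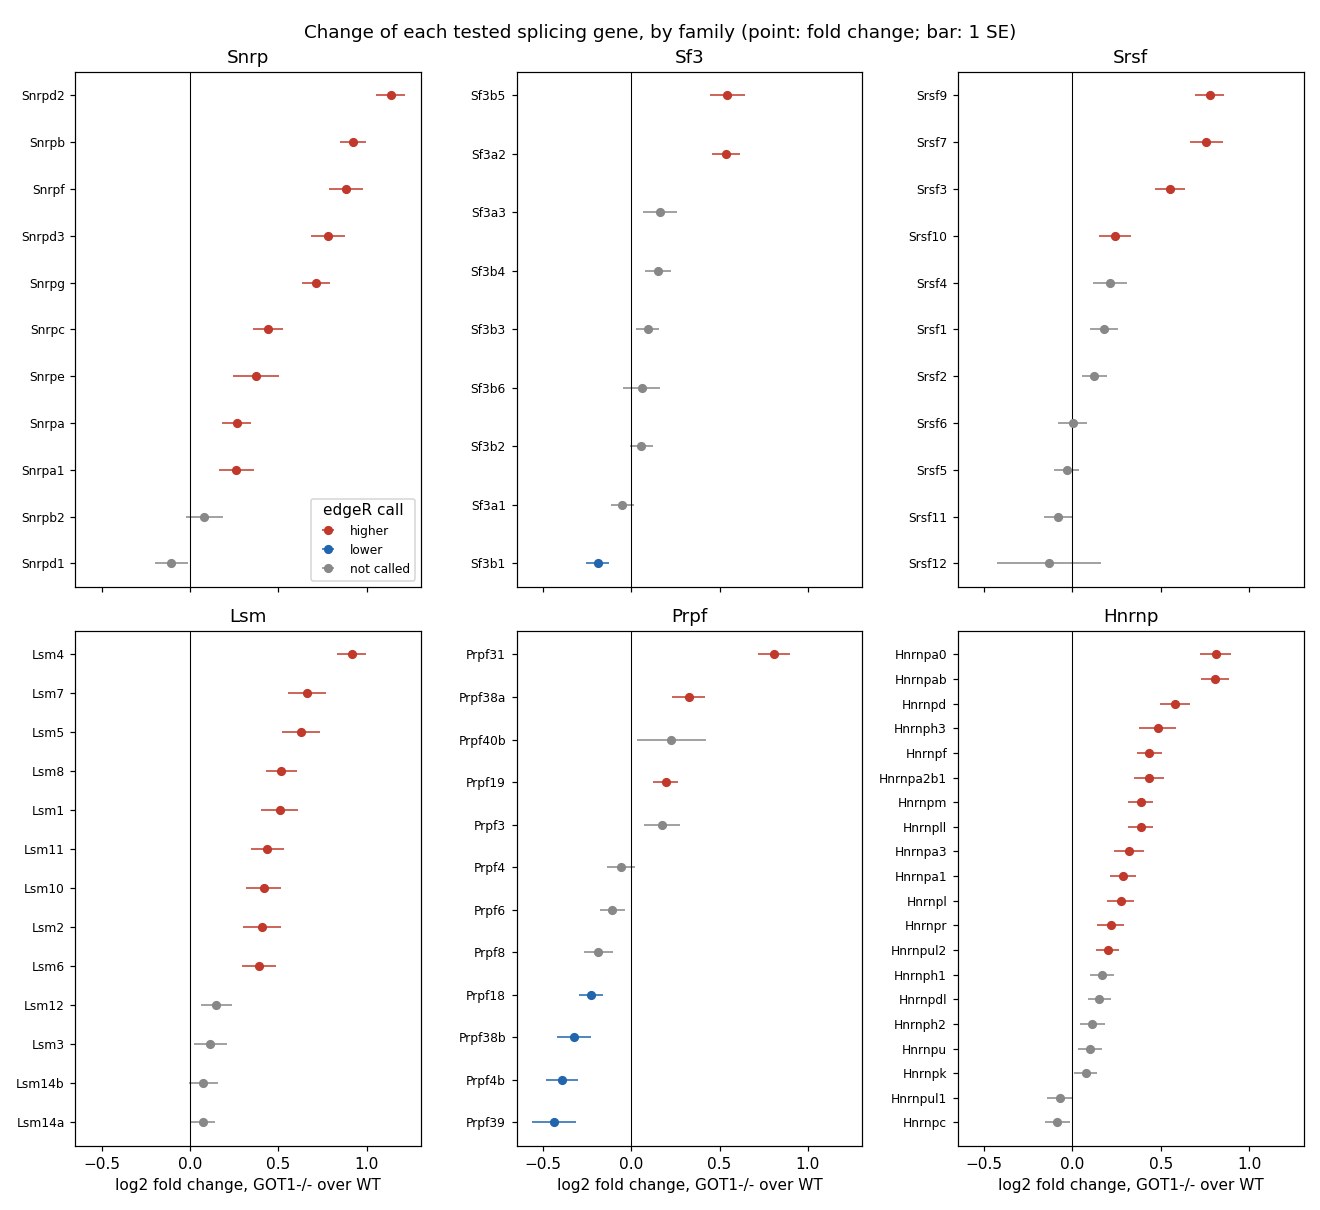
Log2 fold change (GOT1-/- over WT) of 76 tested splicing genes, 1 panel per family; points are fitted changes, bars 1 SE, and colours the edgeR call. Most Snrp, Lsm and Hnrnp points lie right of 0, with Snrpd2 farthest at 1.14, and the called lower genes are in the Prpf and Sf3 panels.

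The small core proteins had the larger median change of the classes. Of 24 tested, 18 rose and none fell, with a median log2 fold change of 0.43 and a range of -0.11 to 1.14. Among the 31 regulators 17 rose and none fell, with a median of 0.22. These 17 were 13 of 20 Hnrnp genes (median 0.28) and 4 of 11 Srsf genes (median 0.18). The 22 Sf3 and Prpf genes were divided, with 5 higher and 6 lower and a median of 0.06. No gene of the small core class or of the regulators was lower at an unadjusted p under 0.05 (0 in edgeR, DESeq2 and limma-voom alike). Without GOT1-/- replicate 2 the number of splicing genes called lower was 3 in place of 6, since Prpf18, Prpf39 and Sf3b1 no longer passed.

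In the Sm ring 6 of the 7 genes rose. The ring protein SmD2 is encoded by Snrpd2, which was at 106, 117 and 112 CPM in GOT1-/- libraries, against 57.1, 48.9 and 46.4 CPM in WT libraries. Every GOT1-/- library was above every WT library, by a wide margin, and the log2 fold change of 1.14 ± 0.08 (SE, adjusted p = 4.19e-08, edgeR) was the highest of all splicing genes. Snrpb, which encodes the SmB and SmB' proteins, was at 218, 233 and 223 CPM in GOT1-/- libraries, against 126, 121 and 108 CPM in WT libraries. It had the highest counts of the Snrp family and its genotypes did not overlap (0.92 ± 0.07, adjusted p = 8.26e-08).

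Snrpf and Snrpg, which encode the smallest ring proteins, moved the same way, and so did Snrpd3. Snrpf (SmF) was at 47.9, 52.8 and 56.0 CPM in GOT1-/- libraries and 25.2, 28.0 and 31.9 CPM in WT libraries. Snrpg (SmG) was at 73.6, 75.8 and 77.4 CPM in GOT1-/- libraries and 49.9, 45.3 and 42.8 CPM in WT libraries. In neither did the genotypes overlap, and the log2 fold changes were 0.88 ± 0.10 for Snrpf and 0.71 ± 0.08 for Snrpg (adjusted p = 2.10e-06 and 2.54e-06, edgeR). Snrpd3 (SmD3) was at 81.6, 91.7 and 110 CPM in GOT1-/- libraries and 58.1, 50.1 and 56.4 CPM in WT libraries, a change of 0.78 ± 0.10 (adjusted p = 9.50e-06). Its highest GOT1-/- library was replicate 3. Snrpd3 overlaps Gucd1 on the other strand, which had about 718 counts per library beside 1464 for Snrpd3.

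Snrpe (SmE) was at 90.4, 92.0 and 135 CPM in GOT1-/- libraries and 70.7, 79.4 and 94.7 CPM in WT libraries. Its genotypes overlapped, since the highest WT library lay above 2 of the GOT1-/- libraries. The change of 0.38 ± 0.13 passed in edgeR (adjusted p = 0.0266) and did not without GOT1-/- replicate 3 (0.16, adjusted p = 0.140), without WT replicate 1 (0.27, adjusted p = 0.139) or without WT replicate 2 (0.36, adjusted p = 0.0848). DESeq2 gave an adjusted p of 0.206. A processed pseudogene with a similar symbol, Snrpert, had 143, 164 and 188 counts in GOT1-/- libraries and 71, 118 and 78 in WT libraries, and how reads were divided between such copies is not stated for this table.

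Snrpd1 (SmD1) was the ring gene that did not pass. It was at 69.4, 79.0 and 93.3 CPM in GOT1-/- libraries and 86.1, 80.5 and 93.4 CPM in WT libraries. The genotypes overlapped and the log2 fold change was -0.11 ± 0.10 (adjusted p = 0.388, edgeR). It was called lower without GOT1-/- replicate 3 (-0.22, adjusted p = 0.0301). SmD1 and SmD2 sit side by side in the ring as a preformed pair. On a per-length scale (TPM over the length of 1 principal mRNA) Snrpd1 had a level of 170 TPM and Snrpd2 one of 143 TPM in GOT1-/- cells, against 202 TPM for Snrpd1 and 71.3 TPM for Snrpd2 in WT cells (means of 3 libraries). Over the deposited gene length Snrpd1 was at 271 TPM and Snrpd2 at 120 TPM in GOT1-/- cells, against 321 and 60.1 TPM in WT cells. The distance between these genes thus depends on the length used.

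**Figure D2:**
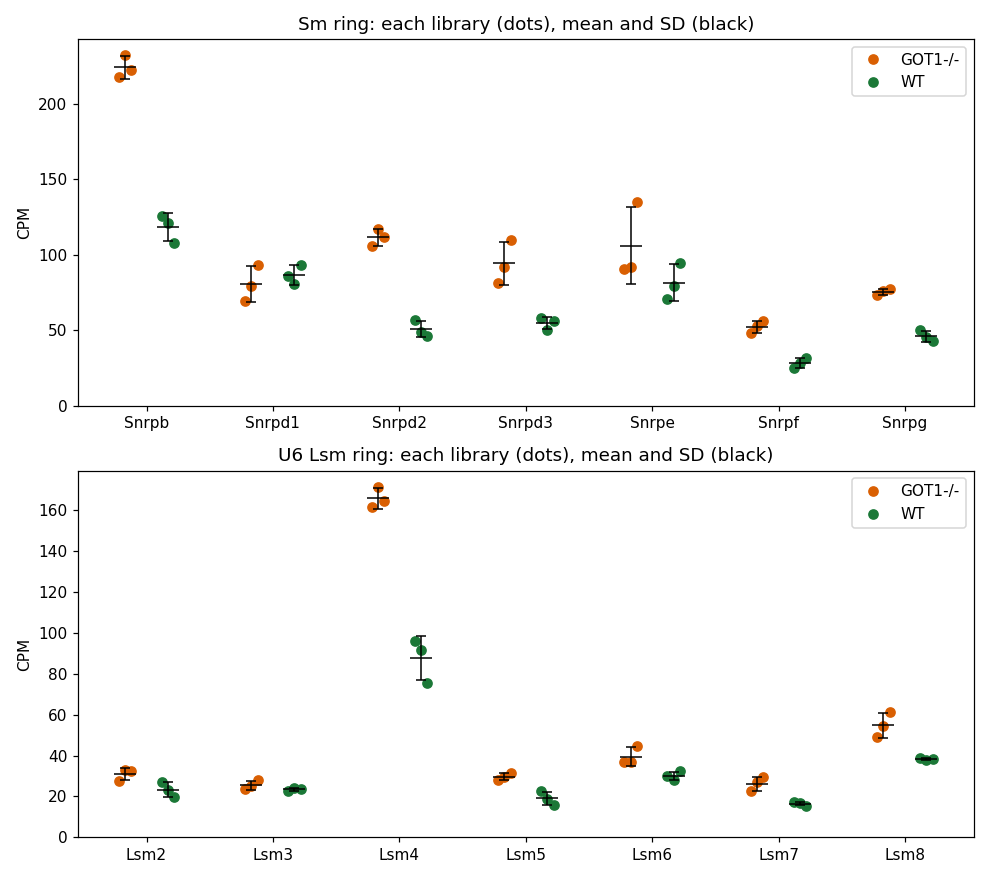
CPM of each Sm ring gene (top) and each U6 Lsm ring gene (bottom) in every library, GOT1-/- in orange left of WT in green; black marks are means with SD of 3 libraries and both axes start at 0. Snrpb and Lsm4 have the highest counts of their rings, and Snrpd1 and Lsm3 are the genes whose 2 genotypes lie closest.

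In the U6 ring 6 of the 7 genes rose. Lsm4 was at 161, 172 and 164 CPM in GOT1-/- libraries and 96.2, 91.7 and 75.7 CPM in WT libraries. All GOT1-/- libraries were above all WT libraries, and the change of 0.91 ± 0.08 (adjusted p = 3.94e-07, edgeR) was the largest of the Lsm family. Lsm7 was at 22.5, 26.9 and 29.4 CPM in GOT1-/- libraries and 17.4, 16.8 and 15.5 CPM in WT libraries (0.66 ± 0.11, adjusted p = 0.000105). Lsm5 was at 28.0, 29.6 and 31.4 CPM in GOT1-/- libraries and 22.4, 19.0 and 16.02 CPM in WT libraries (0.63 ± 0.11, adjusted p = 0.000210). Both have among the shortest mRNAs of the set, and their genotypes did not overlap.

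Lsm8, the subunit that keeps the ring nuclear and on U6, was at 48.9, 54.3 and 61.2 CPM in GOT1-/- libraries and 38.8, 37.6 and 38.3 CPM in WT libraries (0.52 ± 0.09, adjusted p = 0.000158, edgeR). Lsm1, which takes the place of Lsm8 in the cytoplasmic ring that helps decay of messenger RNA, was at 24.3, 23.2 and 28.9 CPM in GOT1-/- libraries and 19.4, 17.3 and 16.9 CPM in WT libraries. Its change of 0.51 ± 0.10 (adjusted p = 0.000812) was of about the size of that of Lsm8; the difference between them was not tested. Lsm2 (0.41 ± 0.11, adjusted p = 0.00582) and Lsm6 (0.39 ± 0.10, adjusted p = 0.00322) rose without overlap between genotypes. Lsm3 was at 23.8, 24.9 and 27.9 CPM in GOT1-/- libraries and 22.7, 24.2 and 23.8 CPM in WT libraries. Its genotypes overlapped (0.11 ± 0.09, adjusted p = 0.330).

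The U7 particle, which cuts the ends of histone messages and is not part of the spliceosome, uses Lsm10 and Lsm11 in its ring in place of SmD1 and SmD2. Lsm10 was at 20.1, 20.9 and 20.04 CPM in GOT1-/- libraries and 16.2, 15.7 and 13.7 CPM in WT libraries. Lsm11 was at 24.9, 25.1 and 25.1 CPM in GOT1-/- libraries and 20.3, 17.7 and 17.4 CPM in WT libraries. Both rose without overlap (0.42 ± 0.10 and 0.44 ± 0.09, adjusted p = 0.00248 and 0.00117, edgeR). Their deposited lengths are 943 and 6453 bp. Lsm10 did not pass with the trend over deposited length, length and GC content, or mRNA length taken out (0.21, 0.14 and 0.19, adjusted p = 0.0844, 0.213 and 0.113, edgeR), corrections that are described further on. Lsm11 passed in all 3 (0.52, 0.49 and 0.67). None of Lsm12, Lsm14a and Lsm14b, larger proteins with an Lsm domain that are not ring subunits of the spliceosome, passed the test, with log2 fold changes of 0.07 to 0.15. Lsm14a, which had the highest counts of its family in WT cells, was at 165, 159 and 183 CPM in GOT1-/- libraries and 162, 154 and 168 CPM in WT libraries.

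Of the 4 proteins specific to the U1 or the U2 particle 3 rose. Snrpc, for the U1-C protein that steadies the pairing of U1 with the splice site, was at 64.5, 65.7 and 76.6 CPM in GOT1-/- libraries and 53.5, 50.6 and 48.1 CPM in WT libraries (0.44 ± 0.08, adjusted p = 0.000460, edgeR). Snrpa, for the U1-A protein, had a change of 0.26 ± 0.08 (adjusted p = 0.0159), and Snrpa1, for the U2-A' protein, one of 0.26 ± 0.10 (adjusted p = 0.0371). Neither of these passed when any of several single libraries was left out, with an adjusted p of up to 0.0730 for Snrpa (0.17, without GOT1-/- replicate 3) and up to 0.181 for Snrpa1 (0.15, without the same library). For Snrpa the other libraries were WT replicates 1 and 2 (adjusted p = 0.0635 and 0.0671), and for Snrpa1 all but GOT1-/- replicate 1. Neither passed in any of the 3 length corrections, with 0.15, 0.04 and 0.07 for Snrpa and 0.16, 0.18 and 0.06 for Snrpa1 (adjusted p = 0.125, 0.692 and 0.447, and 0.167, 0.0963 and 0.617). Snrpb2, for U2-B'', did not pass (0.08 ± 0.10, adjusted p = 0.560).

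Among SR proteins 4 of 11 genes rose. Srsf9 was at 76.0, 86.5 and 89.4 CPM in GOT1-/- libraries, against 50.8, 46.6 and 49.7 CPM in WT libraries. Srsf7, which has a zinc knuckle beside its RNA-binding domain, was at 104, 121 and 139 CPM in GOT1-/- libraries, against 69.6, 66.4 and 78.9 CPM in WT libraries. Neither overlapped between genotypes, and the changes were 0.78 ± 0.08 for Srsf9 and 0.76 ± 0.10 for Srsf7 (adjusted p = 1.51e-06 and 9.95e-06, edgeR). Srsf3, the smallest SR protein and also an adaptor for export of messenger RNA, was at 289, 302 and 361 CPM in GOT1-/- libraries and 203, 211 and 236 CPM in WT libraries. Its genotypes did not overlap either (0.55 ± 0.09, adjusted p = 6.67e-05).

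The fourth, Srsf10, was at 82.7, 82.6 and 99.1 CPM in GOT1-/- libraries and 70.6, 69.0 and 83.9 CPM in WT libraries. Its highest WT library exceeded 2 GOT1-/- libraries, and the change of 0.24 ± 0.09 (adjusted p = 0.0402, edgeR) did not pass without GOT1-/- replicate 2 or 3 (adjusted p = 0.0561 and 0.147) or without WT replicate 1 or 2 (adjusted p = 0.161 and 0.180). Srsf1, the founding SR protein, was at 185, 198 and 223 CPM in GOT1-/- libraries and 173, 169 and 194 CPM in WT libraries. It overlapped between genotypes and did not pass (0.18 ± 0.08, adjusted p = 0.0777), but did without GOT1-/- replicate 1 (0.24, adjusted p = 0.0177) or WT replicate 3 (0.23, adjusted p = 0.0408). Srsf1 was also called higher with deposited length, length and GC, or mRNA length taken out, as described further on (0.23, 0.37 and 0.36, adjusted p = 0.0225, 0.000196 and 0.00145, edgeR). Srsf2, which overlaps Mettl23 and Mfsd11 on the other strand, was at 163, 172 and 176 CPM in GOT1-/- libraries and 156, 166 and 146 CPM in WT libraries (0.12 ± 0.07, adjusted p = 0.168). Srsf5 was at 304, 312 and 339 CPM in GOT1-/- libraries and 314, 321 and 341 CPM in WT libraries (-0.03 ± 0.07, adjusted p = 0.720). Srsf4, Srsf6, Srsf11 and Srsf12 had changes of -0.13 to 0.21 and did not pass, Srsf4 doing so without GOT1-/- replicate 3 (0.30, adjusted p = 0.0116).

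In the hnRNP family 13 of 20 genes rose. Hnrnpa0 was at 600, 643 and 589 CPM in GOT1-/- libraries, against 391, 361 and 291 CPM in WT libraries. Hnrnpab, also called CBF-A, was at 411, 508 and 461 CPM in GOT1-/- libraries, against 271, 269 and 249 CPM in WT libraries. Both lay well apart between genotypes and had log2 fold changes of 0.81 (SE 0.09 for Hnrnpa0 and 0.08 for Hnrnpab, adjusted p = 2.50e-06 and 7.28e-07, edgeR). Hnrnpd, which encodes AUF1, a protein that binds AU-rich elements, was at 169, 184 and 214 CPM in GOT1-/- libraries and 127, 119 and 133 CPM in WT libraries (0.58 ± 0.08, adjusted p = 3.62e-05). Hnrnpf, which binds runs of G, was at 365, 387 and 424 CPM in GOT1-/- libraries and 290, 289 and 290 CPM in WT libraries (0.44 ± 0.07, adjusted p = 8.74e-05).

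The classic hnRNP A and B genes rose by less and were among the highest in level. Hnrnpa1 was at 1300, 1357 and 1503 CPM in GOT1-/- libraries and 1079, 1097 and 1237 CPM in WT libraries. Hnrnpa2b1 was at 666, 727 and 850 CPM in GOT1-/- libraries and 544, 525 and 592 CPM in WT libraries. Each genotype kept to its own range, and the changes were 0.29 ± 0.07 for Hnrnpa1 and 0.43 ± 0.08 for Hnrnpa2b1 (adjusted p = 0.00493 and 0.000476, edgeR). On the per-length scale Hnrnpa1, Hnrnpa3 and Hnrnpa2b1 had the 3 highest levels of all splicing genes in both genotypes, with 1312 ± 55.9, 981 ± 108 and 828 ± 76.0 TPM in GOT1-/- cells and 1184 ± 107, 865 ± 59.0 and 675 ± 52.3 TPM in WT cells (SD, n = 3). Hnrnpa0 had rank 5 in GOT1-/- cells at 415 ± 30.7 TPM and rank 9 in WT cells at 259 ± 35.5 TPM. The order depends on the length used. Over deposited length Hnrnpa1 was still highest (1238 TPM in GOT1-/- and 1120 TPM in WT cells). There Hnrnpa0 (643 and 402 TPM) was above Hnrnpa2b1 (320 and 261 TPM).

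Hnrnpll, the regulator of Ptprc exon choice in activated lymphocytes, was at 92.8, 95.2 and 95.9 CPM in GOT1-/- libraries and 69.6, 70.7 and 76.9 CPM in WT libraries. The 3 GOT1-/- libraries were nearly equal and above all WT libraries (0.39 ± 0.07, adjusted p = 0.000361, edgeR). Its relative Hnrnpl was at 391, 387 and 461 CPM in GOT1-/- libraries and 356, 322 and 347 CPM in WT libraries (0.27 ± 0.08, adjusted p = 0.00817), and without WT replicate 2 its adjusted p was 0.0588 (0.23). Hnrnpr, the longest splicing gene of the table at 22199 bp, rose by 0.22 ± 0.08 (adjusted p = 0.0287), and Hnrnpul2 by 0.20 ± 0.07 (adjusted p = 0.0198). Both lost the call without GOT1-/- replicate 2 (0.15 and 0.18, adjusted p = 0.221 and 0.110), without WT replicate 1 (adjusted p = 0.0717 and 0.0628) and without WT replicate 2 (adjusted p = 0.159 and 0.122). Hnrnpk was at 741, 743 and 800 CPM in GOT1-/- libraries and 738, 703 and 726 CPM in WT libraries, and Hnrnpu, a scaffold protein of chromatin also named SAF-A, was at 516, 566 and 581 CPM in GOT1-/- libraries and 522, 494 and 537 CPM in WT libraries. Neither passed (0.08 ± 0.06 and 0.10 ± 0.07, adjusted p = 0.362 and 0.260). Hnrnpc and Hnrnpul1 had negative log2 fold changes, -0.09 and -0.07, and did not pass.

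**Figure D3:**
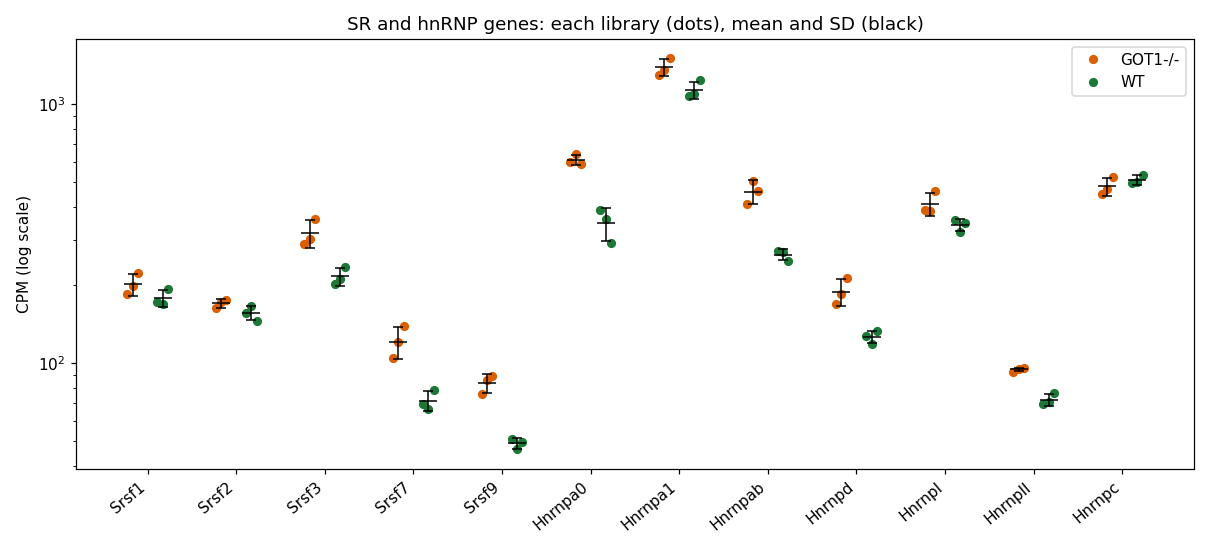
CPM (log scale) of 5 Srsf and 7 Hnrnp genes in every library, GOT1-/- in orange left of WT in green, with means and SD of 3 libraries in black. Srsf7, Srsf9, Hnrnpa0 and Hnrnpab are clearly separated between genotypes, and Srsf2 and Hnrnpc are not.

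The larger spliceosome proteins showed no common direction. In SF3a, Sf3a2 was at 91.1, 98.2 and 102 CPM in GOT1-/- libraries and 72.7, 63.4 and 64.5 CPM in WT libraries (0.54 ± 0.08, adjusted p = 3.97e-05, edgeR). It overlaps Plekhj1 on the other strand, which had about 894 counts per library beside 1617 for Sf3a2. In SF3b, the small subunit gene Sf3b5 was at 67.7, 71.6 and 90.3 CPM in GOT1-/- libraries and 53.2, 55.8 and 48.1 CPM in WT libraries (0.54 ± 0.10, adjusted p = 0.000320). Both were higher in every GOT1-/- library than in any WT library.

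Sf3b1, the large scaffold of SF3b and often mutated in human myeloid disease, was at 329, 321 and 315 CPM in GOT1-/- libraries and 376, 348 and 377 CPM in WT libraries. It was lower in every GOT1-/- library (-0.19 ± 0.07, adjusted p = 0.0264, edgeR). The call was lost without GOT1-/- replicate 2 (-0.20, adjusted p = 0.0844) and without WT replicate 1 (-0.18, adjusted p = 0.0828), and with the length corrections described further on the value was positive. Sf3a1, Sf3a3, Sf3b2, Sf3b3, Sf3b4 and Sf3b6 did not pass, with log2 fold changes of -0.05 to 0.16. Without GOT1-/- replicate 1, Sf3a3 (0.27, adjusted p = 0.0160) and Sf3b4 (0.20, adjusted p = 0.0353) were called higher.

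Among Prpf genes 3 rose and 5 fell. Prpf31, which holds U4/U6 to U5, was at 56.8, 59.9 and 68.5 CPM in GOT1-/- libraries and 38.1, 34.3 and 33.1 CPM in WT libraries (0.81 ± 0.09, adjusted p = 2.56e-06, edgeR). It was clear of every WT library and the largest change of its class. Prpf38a, needed in yeast for activation of the assembled spliceosome, was at 56.6, 59.3 and 68.7 CPM in GOT1-/- libraries and 44.8, 47.2 and 55.2 CPM in WT libraries (0.33 ± 0.09, adjusted p = 0.00948). Its call was lost without WT replicate 1 (0.25, adjusted p = 0.0674). Prpf19, the core of the complex named after it, rose by 0.19 ± 0.07 (adjusted p = 0.0303), which did not pass without GOT1-/- replicate 2 (0.16, adjusted p = 0.159) or without WT replicate 2 or 3 (0.18 and 0.17, adjusted p = 0.122 and 0.0858).

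Prpf4b, a kinase that acts on the spliceosome, was at 44.8, 47.8 and 44.1 CPM in GOT1-/- libraries and 56.7, 54.0 and 69.1 CPM in WT libraries (-0.39 ± 0.09, adjusted p = 0.00234, edgeR). Its genotypes did not overlap. It kept its call with deposited length taken out (-0.22, adjusted p = 0.0423) and lost it with length and GC or with mRNA length (-0.10 and -0.10, adjusted p = 0.321 and 0.374). Prpf39 was at 23.1, 17.6 and 20.4 CPM in GOT1-/- libraries and 25.5, 24.2 and 33.3 CPM in WT libraries (-0.44 ± 0.12, adjusted p = 0.00848). The change of Prpf39 did not pass without GOT1-/- replicate 2 (-0.35, adjusted p = 0.0578) or without WT replicate 3 (-0.30, adjusted p = 0.0578), and Fkbp3 on the other strand had more counts, 836 per library beside 466.

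Prpf38b was at 61.2, 62.4 and 64.7 CPM in GOT1-/- libraries and 83.5, 64.2 and 88.1 CPM in WT libraries. One WT library fell within the GOT1-/- range, and the change of -0.32 ± 0.10 (adjusted p = 0.0125, edgeR) did not pass without WT replicate 1 (-0.29, adjusted p = 0.0512) or WT replicate 3 (-0.25, adjusted p = 0.0721). Prpf18, a second-step factor in yeast, also fell (-0.23 ± 0.07, adjusted p = 0.0130), and did not pass without GOT1-/- replicate 2 (-0.22, adjusted p = 0.0663). Prpf8, the scaffold of the catalytic centre and the Prpf gene with the most counts, was at 566, 506 and 432 CPM in GOT1-/- libraries and 561, 573 and 579 CPM in WT libraries. GOT1-/- replicate 1 lay among the WT libraries, and the change of -0.19 ± 0.08 (adjusted p = 0.0744) passed without it (-0.28, adjusted p = 0.00615).

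The classes differ in length, and the fold change of genes in these libraries went with length. The length column of the deposited table is the length of a gene's exons merged over all its transcripts. It matched that length exactly in the GENCODE M21 annotation for 73 of the 78 genes. Its median was 2805 bp for the tested small core genes, 4818 bp for the regulators and 5550 bp for the Sf3 and Prpf genes. The principal mRNA had a median length of 1108, 2618 and 3265 bp in these classes. For a few genes these measures are far apart: Snrpc has 6521 bp in the table and an mRNA of 758 bases.

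Over 11526 tested protein-coding genes the Spearman correlation of log2 fold change with deposited length was -0.40, and over the 77 splicing genes it was -0.45. These are correlations across genes of the same 6 libraries, and genes are not independent replicates. With mRNA length they were -0.42 and -0.43. Within the small core class it was -0.20 (24 genes), within the regulators -0.28 (31 genes) and within the Sf3 and Prpf genes -0.58 (22 genes), all with deposited length. Single libraries, as deviations from the mean of all 6, had correlations with length of -0.17, -0.35 and -0.45 in GOT1-/- libraries and 0.34, 0.29 and 0.38 in WT libraries. The trend thus separated the genotypes, weakest in GOT1-/- replicate 1, and whether it comes from the cells or from the RNA or library preparation cannot be told apart.

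Protein-coding genes in the shortest of 10 bins by deposited length (204 to 1769 bp) had a median change of 0.29 (log2), with 46.8% called higher. That bin holds 8 of the small core genes, 7 of them higher, with a median of 0.64. In the longest bin (9763 bp and over) the median was -0.29 and 52.1% were called lower. It holds 3 regulators, 2 of them higher and none lower, and 4 Sf3 or Prpf genes, 3 of them lower. Set against the median of its own bin, 19 of 24 small core genes, 26 of 31 regulators and 13 of 22 Sf3 and Prpf genes lay above it. Among the regulators 19 of these 26 were Hnrnp genes, of 20 tested. The median distance from the bin was 0.33 for the small core genes, 0.30 for the regulators and 0.02 for the Sf3 and Prpf genes. In bins by mRNA length these distances were 0.16, 0.20 and 0.07, so the regulators lay above the small core genes. There 20 of 24 small core genes, 25 of 31 regulators and 15 of 22 Sf3 and Prpf genes were above their bin median.

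**Figure D4:**
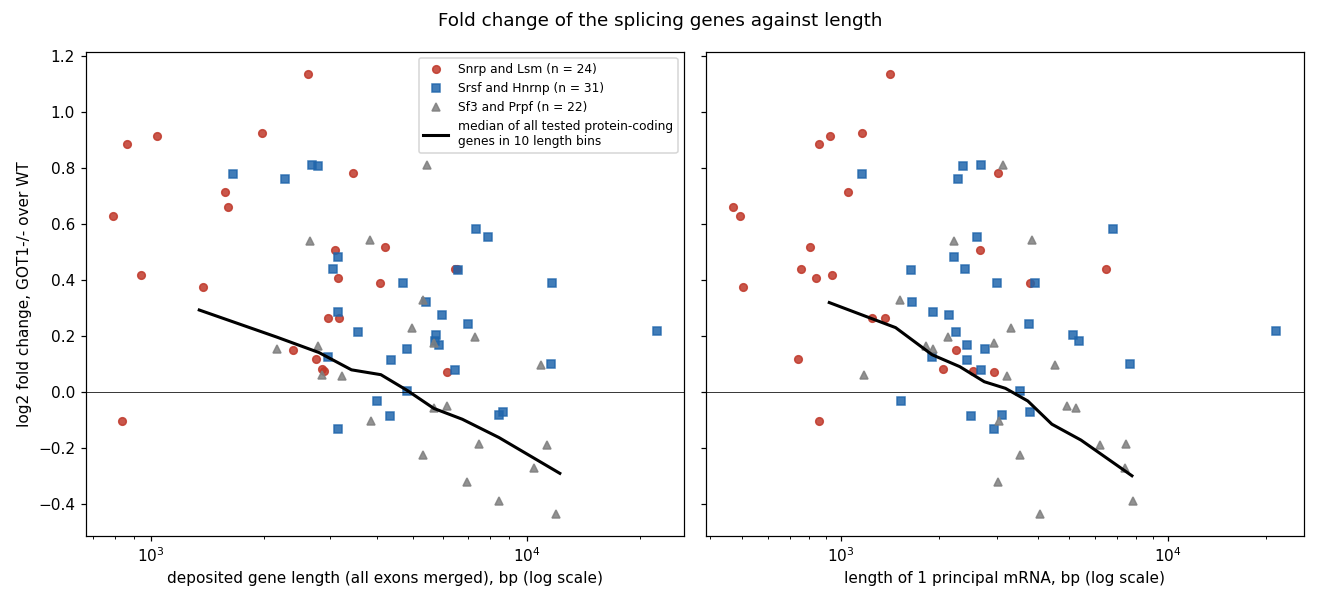
Log2 fold change (GOT1-/- over WT) of each tested splicing gene against deposited gene length (left) and principal mRNA length (right), both on log axes in bp; the black line joins the medians of all tested protein-coding genes in 10 length bins. The line falls with length, from 0.29 to -0.29 on the left, and most red (Snrp and Lsm) and blue (Srsf and Hnrnp) points lie above it.

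With the length trend taken out of each library, the distance between small core proteins and regulators became small. In the uncorrected test the core median minus the regulator median was 0.21. With each library's trend over deposited length removed it was 0.05 (0.37 for the core and 0.33 for the regulators), and with length and GC content together 0.06 (0.43 and 0.37). With the trend over mRNA length removed it was -0.03 (0.24 and 0.27). Both medians were above 0 in each of these, while the order of the classes turned in the last. A trend fitted to all genes also takes out any true difference that goes with length, so neither the corrected nor the uncorrected values can be called the more correct ones here.

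After the correction for deposited length 14 of 24 small core genes were called higher and 1 lower, and 21 of 31 regulators higher and none lower, where 21.0% of all tested genes were called higher and 19.6% lower. With length and GC 16 small core genes and 23 regulators were called higher and none of either class lower (21.2% and 19.7% of all tested genes). With mRNA length 13 small core genes were higher and 1 lower, and 17 regulators higher and 1 lower (20.8% and 20.2% of all tested genes). The 1 small core gene was Snrpd1, at -0.32 with deposited length (adjusted p = 0.00689, edgeR) and -0.34 with mRNA length (adjusted p = 0.00261). The 1 regulator was Srsf5, at -0.21 (adjusted p = 0.00953). The Hnrnp median was 0.34, 0.39 and 0.32 in the 3 corrected fits.

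**Figure D5:**
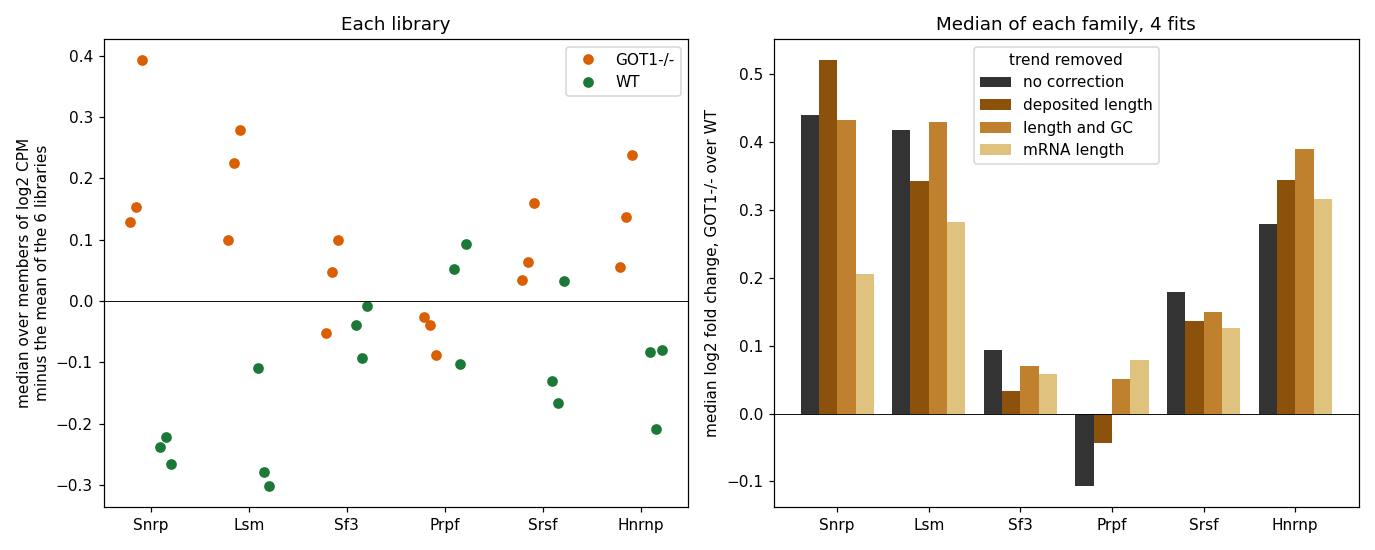
Left, median over each family of log2 CPM minus the mean of the 6 libraries, GOT1-/- libraries in orange left of WT in green; right, median log2 fold change (GOT1-/- over WT) of each family uncorrected and with 3 corrections for length. The Snrp, Lsm and Hnrnp medians of the GOT1-/- libraries lie above those of all WT libraries on the left, and on the right every family but Prpf, Srsf and Sf3 among them, stays above 0 in all 4 fits while Prpf changes sign.

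The corrections moved single genes by different amounts. Snrpd2 had a log2 fold change of 1.00, 0.98 and 0.95 with deposited length, length and GC, and mRNA length, and Snrpb 0.75, 0.65 and 0.71, all called (edgeR). Snrpe kept its call with length and GC alone (0.31, adjusted p = 0.0201) and not with deposited or mRNA length (0.16 and 0.15, adjusted p = 0.293 and 0.326). Long regulators moved up: Hnrnpr had 0.64, 0.72 and 0.70, and Hnrnpu had 0.36, 0.47 and 0.39 and was called higher in all 3. Sf3b1 was at 0.06, 0.15 and 0.04, called higher with length and GC (adjusted p = 0.0419).

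Other splicing genes described above lost their call in 1 or more of the corrections. With mRNA length Hnrnpa1 (0.16, adjusted p = 0.0587), Lsm2 (0.18, adjusted p = 0.152), Prpf38a (0.15, adjusted p = 0.165) and Prpf19 (0.09, adjusted p = 0.248) did not pass (edgeR). Hnrnpa3, higher in the uncorrected test, did not pass with mRNA length either (0.16, adjusted p = 0.0885). With deposited length Prpf38b (-0.21, adjusted p = 0.0728) and Prpf39 (-0.17, adjusted p = 0.229) did not pass. With length and GC neither did Prpf38b (-0.17, adjusted p = 0.131), Prpf39 (0.01, adjusted p = 0.935) or Prpf18 (-0.11, adjusted p = 0.131). Calls were also gained. Like Srsf1 above, Sf3b3 was called higher in every correction (0.34, 0.33 and 0.22 with deposited length, length and GC, and mRNA length). Hnrnpk (0.16 and 0.27) and Hnrnph1 (0.22 and 0.30) were called higher with deposited length and with length and GC, not with mRNA length. Prpf6 was called lower in those same fits (-0.17 and -0.20). Hnrnpdl, Hnrnph2, Lsm14a and Prpf3 were called higher with length and GC alone (0.20 to 0.27).

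By library, the small core median (log2 CPM minus the mean of the 6 libraries) was 0.11, 0.19 and 0.38 in GOT1-/- libraries and -0.15, -0.25 and -0.28 in WT libraries. The regulator medians were 0.05, 0.11 and 0.21 in GOT1-/- libraries and -0.08, -0.21 and -0.04 in WT libraries. GOT1-/- replicate 3 was the highest library for both classes, and the genotypes did not overlap in either. For the Sf3 and Prpf genes the medians were -0.03, 0.00 and 0.04 in GOT1-/- libraries and 0.00, -0.10 and 0.04 in WT libraries, which overlapped. Mitochondrial genes took 1.10 to 1.14% of counts in GOT1-/- libraries and 1.56 to 1.88% in WT libraries.

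The promoters of the splicing genes were searched for common motifs, since many Snrp, Lsm and Hnrnp genes were higher together. RefSeq start sites on GRCm38.p6 were at hand for 67 of the 78 genes, and the 250 bases before each start were read on both strands, overlap between motifs allowed. The ETS motif, searched as CCGGAAG, was in 28.4% of the splicing promoters (19 of 67), against 16.5% of 9156 tested protein-coding genes and 7.83% of all 27025 genes in the RefSeq table. It was in 9 of 18 Sf3 and Prpf promoters, 4 of 20 of the small core and 6 of 29 of the regulators. The share was highest in the Sf3 and Prpf class, and whether the motif bears on the changes was not tested. The GC box, GGGCGG, was in 68.7% of splicing promoters and 64.9% of those of tested protein-coding genes, and the E-box, CACGTG, in 10.4% and 10.1%. CCAAT was in 47.8% and 41.1%, TATAAA in 8.96% and 7.35%, and the YY1 motif AAGATGG in 2.99% and 5.23%. A match of letters is not a bound site.

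The following 4 promoters, each 250 bases 5′ to 3′ on the gene's strand and ending just before the RefSeq start, are shown because they carry the same ETS letters (in capitals) ahead of genes of different classes and directions. Snrpg (chr6:86371290-86371539, plus strand), Srsf7 (chr17:80207306-80207555, minus strand) and Sf3a2 (chr10:80798485-80798734, plus strand) were called higher in GOT1-/- cells, and Prpf4b (chr13:34875279-34875528, plus strand) lower, all in the uncorrected test. In the deposited table Snrpg starts at 86371304, Sf3a2 at 80798198 and Prpf4b at 34875302 of the same chromosomes, before the RefSeq start used here. By that table most of the Snrpg and Prpf4b stretches and all of the Sf3a2 stretch thus lie inside the gene, and the Srsf7 stretch ends right at its start. The motif begins 145, 218, 76 and 71 bases before the start in these 4.
Snrpg: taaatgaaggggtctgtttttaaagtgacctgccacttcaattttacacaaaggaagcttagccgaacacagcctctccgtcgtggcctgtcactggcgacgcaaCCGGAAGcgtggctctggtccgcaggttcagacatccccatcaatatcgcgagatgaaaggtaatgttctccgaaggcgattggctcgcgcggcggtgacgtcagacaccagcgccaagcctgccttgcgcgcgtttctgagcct
Srsf7: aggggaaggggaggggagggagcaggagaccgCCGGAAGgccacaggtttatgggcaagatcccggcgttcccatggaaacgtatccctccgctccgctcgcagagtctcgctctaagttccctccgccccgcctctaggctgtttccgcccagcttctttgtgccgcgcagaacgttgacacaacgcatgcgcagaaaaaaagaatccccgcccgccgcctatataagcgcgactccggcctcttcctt
Sf3a2: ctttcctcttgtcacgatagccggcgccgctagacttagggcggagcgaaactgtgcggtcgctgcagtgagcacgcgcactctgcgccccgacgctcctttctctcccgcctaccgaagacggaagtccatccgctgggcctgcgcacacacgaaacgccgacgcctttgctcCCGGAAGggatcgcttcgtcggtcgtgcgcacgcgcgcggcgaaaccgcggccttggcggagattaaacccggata
Prpf4b: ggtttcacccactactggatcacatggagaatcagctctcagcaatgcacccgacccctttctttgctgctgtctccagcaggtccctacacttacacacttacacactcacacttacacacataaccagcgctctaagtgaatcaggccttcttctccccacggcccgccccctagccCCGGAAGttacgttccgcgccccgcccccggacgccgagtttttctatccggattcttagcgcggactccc

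Other genes of the splicing machinery were described by lists of function. Their counts stand beside 22.9% of all tested genes called higher and 21.0% called lower, and several lists are small. Of 7 further core proteins with Snrnp symbols 5 rose and 1 fell (median 0.56). The U11/U12 protein gene Snrnp25 was at 31.8, 35.2 and 33.4 CPM in GOT1-/- libraries and 19.2, 17.3 and 17.9 CPM in WT libraries (0.88 ± 0.09, adjusted p = 1.12e-06, edgeR). Snrnp40, for a U5 protein, rose by 0.80 ± 0.08, and Snrnp48, for another U11/U12 protein, fell (-0.43 ± 0.09), each without overlap. Of 8 tested minor-spliceosome genes outside that list 1 rose and 3 fell (median -0.10), with Pdcd7 higher (0.32 ± 0.08) and Armc7 (-0.50 ± 0.10) and Zrsr1 (-0.52 ± 0.16) lower. Zrsr1 did not pass without GOT1-/- replicate 2 (-0.46, adjusted p = 0.0709) or WT replicate 3 (-0.39, adjusted p = 0.0877). With deposited length taken out Snrnp48 (-0.21, adjusted p = 0.0508) and Pdcd7 (0.18, adjusted p = 0.102) did not pass, nor with length and GC (-0.08 and 0.07).

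Genes for building snRNPs, the step in which the SMN complex loads Sm rings on RNA, rose in 9 of 18 cases and fell in 1 (median 0.31, and 0.19, 0.23 and 0.18 in the 3 length corrections). Strap, a subunit of the SMN complex, was at 209, 217 and 250 CPM in GOT1-/- libraries and 172, 181 and 195 CPM in WT libraries (0.31 ± 0.08, adjusted p = 0.00423, edgeR). Tgs1, which modifies the cap of snRNAs, was lower (-0.24 ± 0.09, adjusted p = 0.0323), a call lost without GOT1-/- replicate 2 (-0.22, adjusted p = 0.129) or WT replicate 2 (-0.24, adjusted p = 0.0898) or 3 (-0.19, adjusted p = 0.111). Among 52 other U2, tri-snRNP and catalytic-step genes 17 rose and 7 fell (median 0.09). These are 32.7% and 13.5%, beside 22.9% and 21.0% of all tested genes. U2af2, the large subunit of U2AF, rose by 0.63 ± 0.08 and Ppie, a cyclophilin of the spliceosome, by 0.66 ± 0.09, while the second-step factors Slu7 (-0.42 ± 0.07) and Cdc40 (-0.36 ± 0.07) fell. Tgs1 and Cdc40 did not pass with length and GC taken out (-0.09 and -0.11, adjusted p = 0.344 and 0.181), nor Tgs1 with mRNA length (-0.14).

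Splicing regulators outside the Srsf and Hnrnp symbols were evenly divided in the uncorrected test, 11 higher and 11 lower of 49 (median -0.07), near the shares of all tested genes. The split moved to 15 higher and 6 lower with deposited length taken out, and to 15 and 5 with length and GC. The mRNA length correction gave 12 higher and 10 lower. Tardbp (0.58 ± 0.08), for an RNA-binding protein also known from motor neuron disease, rose. Ptbp3 was at 431, 379 and 380 CPM in GOT1-/- libraries and 590, 622 and 688 CPM in WT libraries and fell (-0.68 ± 0.08, adjusted p = 3.07e-06, edgeR), and so did Mbnl2 (-0.53 ± 0.09), which did not pass with length and GC taken out (-0.15, adjusted p = 0.0645). The kinases and phosphatases of SR proteins were mostly lower, 6 of 9 with 1 higher (median -0.28). Srpk2, an SR protein kinase, was at 52.6, 48.0 and 44.6 CPM in GOT1-/- libraries and 78.2, 82.3 and 79.6 CPM in WT libraries (-0.72 ± 0.08, adjusted p = 2.31e-06). Srpk1 fell (-0.36 ± 0.07), a change that was -0.08 and not called with deposited length taken out. Of the 9 genes 2 were lower and 2 higher with deposited length, and also with length and GC (medians -0.12 and -0.13). The mRNA length correction left 5 lower and 1 higher (median -0.23).

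Downstream of splicing, 10 of 21 exon junction and export genes rose and 3 fell (median 0.23, and 0.08, 0.17 and 0.12 with deposited length, length and GC, and mRNA length taken out). Over all tested genes 22.9% were called higher and 21.0% lower. The export adaptor gene Alyref was at 84.8, 95.5 and 103 CPM in GOT1-/- libraries and 59.9, 50.9 and 52.2 CPM in WT libraries (0.80 ± 0.09, adjusted p = 2.57e-06, edgeR), and the helicase gene Ddx39 rose by 0.61 ± 0.08. Thoc2 (-0.71 ± 0.11) and Zc3h11a (-0.87 ± 0.13) fell. Of 10 nonsense-mediated decay genes 1 rose, Upf3a (0.34 ± 0.11), and 4 fell (median -0.06), among them Upf2, at 42.5, 41.7 and 36.4 CPM in GOT1-/- libraries and 67.1, 66.9 and 72.4 CPM in WT libraries (-0.77 ± 0.08, adjusted p = 1.74e-06). Upf3a did not pass without GOT1-/- replicate 3 (0.21, adjusted p = 0.0949) or WT replicate 2 (0.26, adjusted p = 0.116), nor with mRNA length taken out (0.23, adjusted p = 0.0775).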

How the data were processed

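Poly-A RNA of 6 libraries was measured, 3 from GOT1-/- and 3 from WT Th17 cells, grouped by their titles. The table the authors deposited holds raw whole-number counts of reads for each gene. STAR and the mouse build GRCm38 are named in the submitters' processing notes. For the STAR version, the counter, strand use and annotation, the sources used here give nothing. Reads of overlapping genes and of processed pseudogenes, of which 5 share the symbol pattern, may be divided in unknown ways. The splicing genes, their classes and the gene lists were chosen with earlier results of these data known.

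Counts were tested with edgeR 4.0.16 in R 4.3.3: TMM scaling, filterByExpr (minimum count 10, minimum total 15), quasi-likelihood F-test with genotype alone, two-sided, Benjamini-Hochberg adjustment over all 12873 genes tested, calls at 0.05. SE is the log2 fold change over the square root of F. TPM used the length of 1 principal transcript of GENCODE M21. Corrections removed, per library, a spline (5 degrees of freedom) over length, over length and GC content, or over mRNA length; the last was chosen after seeing the data. Of 54532 genes 27 symbols turned to dates were restored, and of a repeated symbol 1 row kept it. Totals were 16463752 to 22541410, so 3 counts, the limit that a count of 0 allows, correspond to 0.133 to 0.181 CPM, counting error only. No pair of libraries of the same genotype was alike within sampling noise (chi-square over its degrees of freedom 3.76 to 13.7), and all libraries were kept. Alternatives were DESeq2 1.42.0, limma-voom 3.58.1, other scalings and filters, a robust fit, protein-coding genes alone, a replicate block and leaving out each library. The analysis code was tested on simulated data. Genes named were those with the smallest adjusted p, highest count or extreme length in each family, and a list by role; others named were chosen after their values were seen. A few genes that this rule covers are not reported here.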

Additional observations from a re-analysis of the deposited data

How the results depend on the processing

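Counts of splicing genes called higher stayed within 1.5 times of the uncorrected value under all 21 alternatives, 32 to 48 beside 40, and over all genes 2267 to 3245 beside 2944 were called higher and 2159 to 2839 beside 2699 lower. Leaving out single libraries gave 3 to 7 splicing genes lower (6 with all libraries), 0 to 1 small core genes lower (0), core medians of 0.39 to 0.49, regulator medians of 0.19 to 0.25 and Sf3 and Prpf medians of -0.0097 to 0.10. The number lower was 1 with length and GC, and 2 with the replicate block added to it. One small core gene was lower with deposited length, with mRNA length, and with the block and either length or length and GC, and 1 regulator with mRNA length. The core median was 0.24 with mRNA length, and the regulator median was 0.33 with deposited length and 0.37 with length and GC (0.32 and 0.37 with the block).

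Directions turned in a few results, most of them not called in the uncorrected test. Sf3b1 (-0.19) and Prpf39 (-0.44) were called lower there. With deposited length, log2 fold changes were 0.062 for Sf3b1, 0.088 for Srsf11, -0.012 for Sf3b4 and -0.014 for Lsm3 (with the block 0.062, 0.088, -0.012 and -0.015). With length and GC they were 0.15 for Sf3b1, 0.012 for Prpf39, 0.034 for Srsf5, 0.15 for Srsf11, -0.096 for Sf3b4 and 0.051 for the Prpf median (with the block 0.15, 0.015, 0.034, 0.15, -0.096 and 0.054). With mRNA length they were 0.035 for Sf3b1, 0.079 for Prpf8, -0.12 for Lsm3, -0.0054 for Srsf2 and 0.079 for the Prpf median. Srsf5 was at 5.4e-05 with upper quartile scaling and from -0.082 to 0.00024 when single libraries were left out, above 0 without GOT1-/- replicate 1. The cause was not tested. Of 76 tested genes named by rule, 43 kept their call and direction in every alternative. This set is not that of the splicing genes tested: it includes Got1 and genes of the other lists, such as Srpk2, Upf2 and Alyref. It leaves out splicing genes whose calls changed, among them Snrpa, Snrpa1, Prpf18, Hnrnpa3 and Sf3b3. The 43 of 76 is thus not the share of splicing genes with stable calls. Upper quartile scaling moved the median of all genes by 0.03, the other scalings by less.

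Genotypes share replicate numbers, but same-numbered libraries had correlations of 0.06, -0.03 and 0.03 of their deviations, none over 0.1, and not every library correlated best with its own number, so the numbers were not taken as pairs. With the replicate block 42 splicing genes were called higher and 6 lower, and 3005 and 2787 over all genes. Depth was ample for most splicing genes; Srsf12 and Prpf40b, under 6 CPM, had the largest SE.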
